A study of Sus scrofa with 80 samples.

Results

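KIT, the gene of the receptor tyrosine kinase that binds the stem cell factor KITLG, was followed in 80 Affymetrix Porcine arrays of 16 young pigs, in hypothalamus (HYPT), adenohypophysis (AHYP, the anterior pituitary), thyroid gland (THYG), backfat (FATB) and gonads, with testis (GONAM) and ovary (GONAF) kept apart. The array annotation gives the single symbol KIT to 1 probeset, a set of short probes for 1 transcript, so that KIT was 1 of 6765 gene symbols. It was taken up because its mean over the tissues of an animal differed between breeds in earlier results of these data. The breed levels of KIT are therefore given as a description and without a test, and tests are kept to tissue, to sex and to whether breed differences vary between tissues. With 1 probeset, transcripts, alleles or gene copies cannot be told apart, and no sequence of the probes was used here.

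The pigs were of 4 breeds with 4 animals each. Large White (LW) is a lean, fast growing breed, represented by 2 males and 2 females with a mean age of 87 days. Youli (YL) pigs, of a maternal line with large litters and both Landrace and Chinese ancestors, were represented by 3 males and 1 female with a mean age of 80 days. Duroc (DU), here a maternal line, and Iberian (IB), a slow growing and fat breed, were represented by 2 males and 2 females each, with mean ages of 83 and 89 days. All were healthy untreated piglets that came from 3 breeding companies, shared housing and diet from weaning on, and were fasted before sampling. Mean live weights were 27.2 kg in Large White, 23.1 kg in Duroc, 18.9 kg in Youli and 17.4 kg in Iberian pigs. Breed, company of origin, age and weight cannot be told apart in this design, and neither coat colour nor KIT genotype was part of the labels.

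KIT sits on the cell surface, where a KITLG dimer joins a pair of receptor molecules and turns on their kinase, which then acts through adaptor proteins, PI3 kinase, SRC family kinases and the RAS and MAP kinase pathway. Melanocytes, mast cells, blood progenitors, spermatogonia, oocytes and the interstitial cells that pace the gut all depend on it. In the testis KIT is found on differentiating spermatogonia and Leydig cells, and in the ovary on oocytes and theca cells, while granulosa and Sertoli cells make the ligand. In pigs, duplications and a splice mutation of KIT are well known as the cause of dominant white coat colour in breeds such as Large White and Landrace, whereas Duroc and Iberian pigs are coloured. This is background, and these arrays do not show which alleles the animals carried.

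Values are log2 signals after GCRMA, a normalization that corrects for non-specific binding by probe sequence, so that a difference of 1 is 2-fold. Medians of the arrays ran from 4.67 to 5.04, and the table from 0.83 to 16.04. Titles were used throughout, since 11 of 16 thyroid arrays have a title that conflicts with their fields for breed or sex. The Y-linked EIF1AY, a translation factor, followed the titles in all 80 arrays, at 2.64 to 3.23 in the 35 arrays titled as female and 8.74 to 10.61 in the 45 titled as male. By the fields, female thyroids would have run from 2.68 to 10.03 and male ones from 2.76 to 10.16. Markers of each tissue were in place in most arrays: thyroglobulin TG was at 13.81 to 14.63 in the thyroids and at most 5.47 elsewhere, the glial GFAP at 13.64 to 14.50 in the hypothalami, and growth hormone GH1 at 15.48 to 16.04 in the adenohypophyses.

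Clear exceptions were 7 arrays, counted where GH1 or the fat hormone ADIPOQ was above 10 outside its own tissue or where ovarian signals or hypothalamic peptides were absent. The ovary of the IB female IBF25 lacked ovarian signals: the oocyte gene DPPA5 was at 1.97 there and at 9.39 to 12.65 in the other 6 ovaries, and the granulosa gene FST, for follistatin, at 2.22 against 9.60 to 11.50. Its correlation with the other ovaries was 0.893 to 0.940, whereas those correlated with each other at 0.960 to 0.988. GH1 was at 14.70 in the thyroid of the YL male YLM20, 11.04 in the thyroid of YLM19 and 10.93 in the hypothalamus of YLM19. ADIPOQ was at 10.89 and 10.14 in the thyroids of DUM12 and LWM02. In the hypothalamus of LWF06 the peptide genes PMCH and AVP were at 2.68 and 1.84. PMCH ran from 6.13 to 14.09 in the other 15 hypothalami, while AVP was also low in that of LWM04 (1.86). Weaker signals of another tissue were seen below that level. GH1 or the pituitary hormone PRL was above 5 in 11 of 57 other arrays from outside the adenohypophysis, with the most GH1 in the hypothalamus of IBM24 (7.10) and the most PRL in the testis of YLM19 (8.16), and TG was above 5 outside the thyroid in the hypothalamus of DUM12 alone (5.47). Breed means of KIT that rest on the 7 arrays are given with and without them, and contrasts with the ovary with and without the array of IBF25. The sex tests outside the gonads and the breed by tissue test are not printed without the 7 arrays. The part of the weaker signals was not tested.

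KIT was highest in the thyroid gland and lowest in the adenohypophysis. Its mean was 7.99 ± 0.84 (SD, n = 16) in the thyroid, 6.42 ± 1.69 (n = 7) in the ovary, 6.13 ± 1.42 (n = 9) in the testis, 6.06 ± 1.21 (n = 16) in backfat, 5.33 ± 1.07 (n = 16) in the hypothalamus and 4.37 ± 1.01 (n = 16) in the adenohypophysis. Each of these groups holds the 4 breeds, and the tests adjust for breed and sex. In bulk tissue, fewer cells that express KIT and less KIT RNA per cell cannot be told apart.

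The 6 tissue classes differed in KIT by limma's moderated F test (F = 60.5, adjusted p = 1.1e-23), in a comparison that called 94.2% of all probesets. The thyroid stood above the ovary, next in order, by 1.58 (SE 0.29, adjusted p = 4.0e-06, limma), where 44.1% of probesets were called. Without the ovary of IBF25 the ovarian mean was 6.94 ± 1.08 (n = 6) and the difference 1.20 (adjusted p = 0.00016, limma). In this fit the sex term rests on the non-gonadal tissues alone, so that testis minus ovary is what remains beyond the sex difference there. Other tissues are likewise set against testis or ovary at equal sex. With all arrays, ovary, testis and backfat could not be put in order. Testis minus ovary was -0.26 (95% interval -0.96 to 0.43, adjusted p = 0.67), backfat minus testis -0.08 (-0.61 to 0.45, adjusted p = 0.81) and backfat minus ovary -0.34 (-0.93 to 0.24, adjusted p = 0.31), all from limma, in comparisons that called 34.9%, 66.1% and 63.4% of probesets. Both estimates against the ovary moved with the array of IBF25. Without it testis minus ovary was -0.65 (adjusted p = 0.11, limma), and backfat was below the ovary by a difference of -0.73 that passed (adjusted p = 0.016, limma). The hypothalamus was below backfat by a difference of -0.74 (SE 0.22, adjusted p = 0.0020, limma; 73.7% of probesets called) and above the adenohypophysis by 0.96 (SE 0.22, adjusted p = 9.9e-05, limma; 53% called).

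**Figure D1:**
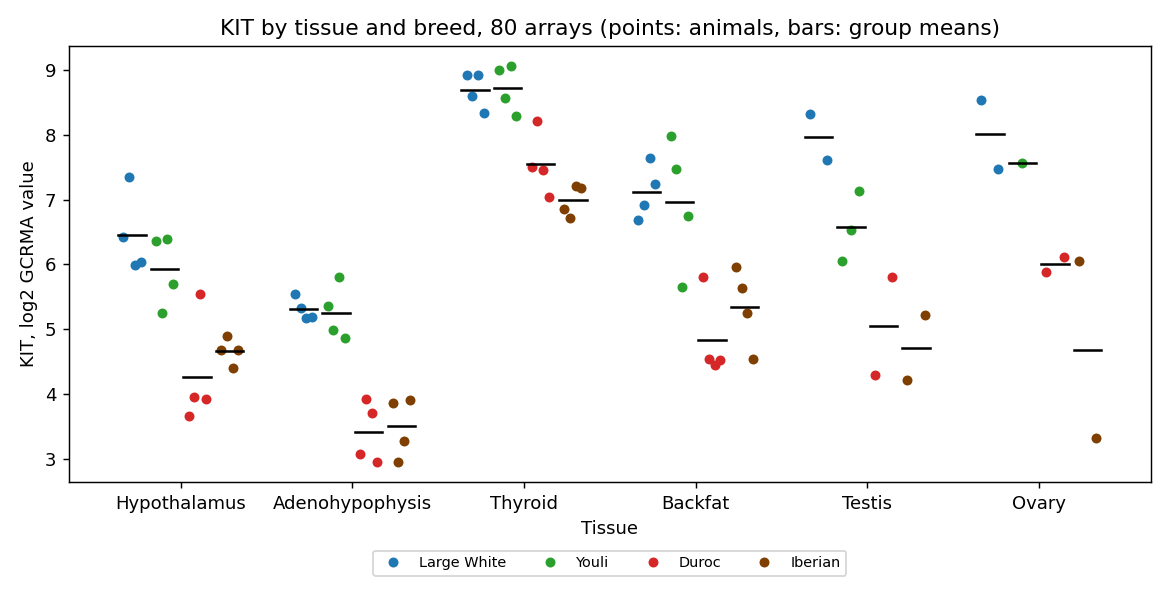
KIT on the log2 GCRMA scale (vertical axis) in each of 80 arrays, by tissue and breed (colour). Points are animals and bars are group means. LW arrays lie above all DU and IB arrays in each of the 6 tissue classes, and thyroid arrays run from 6.71 to 9.07.

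In every tissue the breed means of LW and YL pigs were above those of DU and IB pigs. LW did not overlap with DU or with IB pigs in any of the 6 tissue classes. YL did not overlap with IB pigs in 5 of 6 and with DU in 4 of 6, whereas DU and IB pigs overlapped in all 6. These counts include gonads with 1 to 3 arrays a breed. In the 4 other tissues, with 4 arrays a breed, YL did not overlap with IB pigs in 3 of 4 and with DU in 2 of 4. Since KIT was chosen for this difference, the shares of all probesets with non-overlapping ranges are printed beside the values and nothing is read from them.

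In the adenohypophysis, where KIT was lowest, LW and YL both stood clear of DU and IB, as they also did in the thyroid. LW animals were at 5.17, 5.19, 5.33 and 5.54 (mean 5.31 ± 0.17) and YL animals at 4.86, 4.98, 5.36 and 5.81 (5.25 ± 0.43). DU animals were at 2.94, 3.07, 3.71 and 3.92 (3.41 ± 0.48) and IB animals at 2.94, 3.28, 3.86 and 3.90 (3.50 ± 0.47). The lowest YL array was 0.94 above the highest DU array and 0.95 above the highest IB one. LW minus DU was 1.90, or 3.72-fold, and 3.99% of all probesets did not overlap between these groups. For LW and IB pigs the share was 2.52%, for YL and DU 4.82%, and for YL and IB pigs 13.9%. LW and YL overlapped, as did DU and IB, where 4.8% and 12.9% of probesets did not.

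In the hypothalamus the order was the same, with 1 DU animal among the YL values. LW was at 5.99, 6.04, 6.43 and 7.35 (6.45 ± 0.63) and YL at 5.25, 5.69, 6.36 and 6.39 (5.92 ± 0.55). DU was at 3.66, 3.92, 3.95 and 5.55 (4.27 ± 0.86), and IB pigs at 4.41, 4.67, 4.68 and 4.89 (4.66 ± 0.20). The DU male DUM12, at 5.55, lay far from the other 3 DU animals and above the lowest YL animal, so that DU and YL overlapped. The same array carried thyroglobulin, with TG at 5.47 against 1.81 to 2.27 in the other 15 hypothalami, and the DU mean was 3.84 without it. The part of that signal in its KIT level was not tested. The highest value, 7.35, was that of LWF06, the array without hypothalamic peptide signals, and the LW mean was 6.15 without it. The highest YL value, 6.39, was that of YLM19, the array with GH1 at 10.93, and the YL mean was 5.77 without it. LW minus DU was 2.18, or 4.55-fold (5.34% of probesets did not overlap), and YL minus IB 1.26, or 2.39-fold (7.55%). LW and IB pigs did not overlap either (4.57%), whereas LW and YL (4.68%), YL and DU (4.17%) and DU and IB (4.29%) overlapped.

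Thyroid arrays showed the smallest gap between LW and DU in the log2 scale. LW was at 8.34, 8.61, 8.92 and 8.93 (8.70 ± 0.28), and YL, which was level with it, at 8.29, 8.57, 8.99 and 9.07 (8.73 ± 0.37). DU was at 7.04, 7.46, 7.50 and 8.21 (7.55 ± 0.48) and IB pigs at 6.71, 6.85, 7.18 and 7.20 (6.99 ± 0.24). The highest DU thyroid, that of DUF14, was 0.08 below the lowest YL thyroid, which is the array of YLM20 that carried pituitary signals. Without the 4 thyroid arrays that stood apart the means were 8.62 in LW, 8.78 in YL and 7.58 in DU pigs. LW minus DU was 1.15, or 2.21-fold (5.59% of probesets did not overlap), and LW minus IB 1.71, or 3.27-fold (3.69%). YL did not overlap with DU (5.14%) or IB pigs (7.14%), while LW overlapped with YL (4.58%) and DU with IB pigs (6.13%). By the breed fields in place of the titles, the LW mean would be 8.41 ± 0.83 and the IB mean 7.39 ± 0.60.

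Backfat had the widest spread among YL pigs. LW was at 6.68, 6.92, 7.24 and 7.64 (7.12 ± 0.41) and YL at 5.64, 6.74, 7.48 and 7.98 (6.96 ± 1.02). DU was at 4.45, 4.52, 4.54 and 5.81 (4.83 ± 0.66) and IB pigs at 4.54, 5.24, 5.64 and 5.95 (5.34 ± 0.61). The low YL array, of YLM19, overlapped with DU and IB pigs, and was also lowest of all 16 backfat arrays in ADIPOQ (11.53) and in the fatty acid carrier FABP4 (13.55). The part of those values in its KIT level was not tested. LW minus DU was 2.29, or 4.89-fold, in a tissue where 31.3% of all probesets did not overlap between these breeds. LW and IB pigs did not overlap either (27.4%), and the other pairs overlapped, with shares of 21.2% for LW and YL, 4.01% for YL and DU, 8.13% for YL and IB and 8.43% for DU and IB.

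In the testes, LW males were at 7.61 and 8.32, YL males at 6.05, 6.54 and 7.14, DU males at 4.29 and 5.80, and IB males at 4.22 and 5.21. This is the class in which LW also stood clear of YL, with a gap of 0.47 and a mean difference of 1.39, or 2.62-fold (15.8% of probesets did not overlap). LW minus IB was 3.25, or 9.54-fold (36%), and LW minus DU 2.92, or 7.58-fold (33.9%). YL did not overlap with DU (25.5%) or IB males (29.1%), and DU and IB males overlapped (27.4%).

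In the ovaries, LW females were at 7.48 and 8.54, the YL female at 7.56, DU females at 5.89 and 6.12, and IB females at 3.32 and 6.05. The value of 3.32 is that of IBF25, the array without ovarian signals. With IBF22 as the only IB ovary, at 6.05, the IB level lay between the DU values. LW minus DU was 2.01, or 4.03-fold (34.4% of probesets did not overlap). LW did not overlap with IB (24.8%), nor the YL ovary with DU (74.8%) or IB ones (72.8%), while LW overlapped with YL (74.4%) and DU with IB ovaries (36.6%), and with 1 to 2 arrays a group such shares are high for all probesets.

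**Figure D2:**
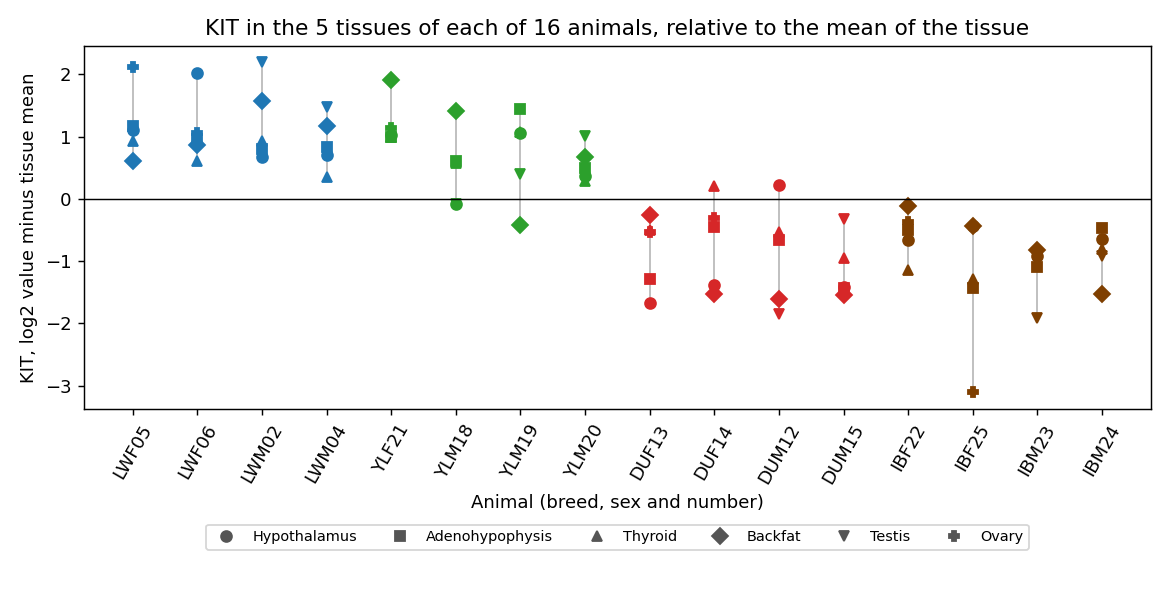
KIT of each array minus the mean of its tissue class, on the log2 scale (vertical axis), for the 16 animals in breed order (horizontal axis). Marker shapes are tissues, colours are breeds, and grey lines span the range of an animal. All arrays of LW pigs lie above 0, and all arrays of IB pigs below it.

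The same values are described here animal by animal, and they are the ones for which KIT was chosen. Relative to the mean of its tissue class, KIT was above 0 in 20 of 20 LW, 17 of 20 YL, 2 of 20 DU and 0 of 20 IB arrays. Since arrays of an animal share that animal, these are 4 animals a breed and not 20 replicates. No share over all probesets was computed for such counts, and nothing is read from them. The 3 YL arrays below the mean were the hypothalamus and testis of YLM18, the lower one at -0.08, and the backfat of YLM19 at -0.42. The YL female YLF21 had the mean deviation nearest to LW, 1.22, beside 0.91 to 1.23 in the 4 LW animals and 0.49 to 0.71 in the 3 YL males. Both DU arrays above the mean, the thyroid of DUF14 (0.21) and the hypothalamus of DUM12 (0.22), came from animals whose other 4 arrays were below it. IB animals had mean deviations of -0.56 to -1.33, where the lowest is that of IBF25, whose 4 arrays other than the ovary had a mean of -0.89.

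Whether the breed difference of KIT varied between tissues was tested in hypothalamus, thyroid and backfat, with the adenohypophysis left out because its breed levels were known beforehand. The breed by tissue term did not pass (moderated F = 1.25, adjusted p = 0.95, limma), where 1.18% of probesets were called. This does not show that the breed difference is equal among tissues.

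KIT was not called between the sexes in any tissue. Male minus female, with breed in the model, was -0.16 for hypothalamus (95% interval -0.84 to 0.51, adjusted p = 1.0, limma; 0.0667% of probesets called) and -0.09 for adenohypophysis (-0.54 to 0.36, adjusted p = 1.0, limma; 0.5% called). It was -0.16 for thyroid (-0.54 to 0.23, adjusted p = 0.96, limma; 0.0792% called) and -0.53 for backfat (-1.25 to 0.20, adjusted p = 1.0, limma; 0.05% called). Fitted within the 16 gonads alone, with no sex difference of other tissues taken off, testis minus ovary was -0.45 (SE 0.41, 95% interval -1.35 to 0.44, adjusted p = 0.49, limma). In that fit 28.3% of probesets were called. Without the ovary of IBF25 it was -0.77 (adjusted p = 0.098, limma). Males were thus not above females in any of the 5 estimates, and none passed the threshold.

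The ligand KITLG, which membrane-bound or shed activates KIT, had low values throughout. Its class means ran from 2.54 (adenohypophysis) over 2.73 (hypothalamus), 3.04 (ovary), 3.09 (backfat) and 3.25 (thyroid) to 3.36 (testis), all under the median of every array. Over the mean of the tissues it was at 2.79 ± 0.26 in LW, 3.07 ± 0.11 in YL, 3.16 ± 0.22 in DU and 2.86 ± 0.33 in IB pigs (SD, n = 4 each; adjusted p = 0.41, limma). LW had the lowest KITLG mean and the highest KIT mean, but KITLG did not pass the test. In the ovaries with granulosa signals (FST at 9.60 to 11.50) KITLG was at 2.50 to 4.34, although granulosa cells make the ligand. Low signals of this 1 probeset therefore do not show that the ligand is scarce. In the thyroid KITLG was at 2.68 ± 0.26 in LW, 3.74 ± 0.81 in YL, 3.54 ± 0.54 in DU and 3.04 ± 0.78 in IB pigs (adjusted p = 0.46, limma).

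Of the receptor family and its ligands, 6 of 17 genes were measured by a probeset with their symbol alone, and 0 of 6 were called by breed over the mean of the tissues, where 1.3% of all probesets were called. PDGFRB, the PDGF receptor of pericytes and fibroblasts, was at 9.53 to 9.79 in the 4 breeds (adjusted p = 0.37, limma), and VEGFA, the vascular growth factor, at 9.86 to 10.14 (adjusted p = 0.19, limma). In the gonads 1 of 6 was called, where 28.3% of all probesets were called and 13.2% were lower in testis: IL34, a ligand of the related receptor CSF1R, was lower in testis by a difference of -0.66 (SE 0.14, adjusted p = 0.0029, limma).

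Of the signalling genes downstream of KIT, 18 of 33 were measured, and 0 of 18 were called by breed over the mean of the tissues or in any tissue. In single tissues the background was 0.171% of probesets for hypothalamus, 0.3% for adenohypophysis, 0.575% for thyroid, 0.817% for backfat and 0.05% for gonads. Their median unadjusted p for breed over the mean of the tissues was 0.14, and that of all probesets 0.24. The adaptor GRB2 was at 8.17 to 8.51 in the 4 breeds, the docking protein GAB1 at 9.14 to 9.38, and the SRC family kinase LYN at 2.96 to 3.28. Between the gonads 5 of 18 were called, 1 higher in testis, as were 15% of all probesets, and 4 lower, as were 13.2%. The SRC family kinase FYN was higher in testis by 0.99 (SE 0.19, adjusted p = 0.0021, limma). The adaptor GRB10 (-1.22), the kinase JAK2 (-0.63), the MAP kinase MAPK14 (-0.63) and the transcription factor STAT3 (-0.42) were lower in testis, with adjusted p from 0.0017 to 0.030 (limma). JAK2 and STAT3 did not pass with arrays centred on a common median (adjusted p = 0.055 and 0.050, limma), nor without the animal YLF21, the only YL female (0.12 and 0.075). Of the negative regulators, phosphatases and ubiquitin ligases that end the signal, 4 of 12 were measured (PTPN6, CBLB, SOCS1 and PTPRU), and 0 of 4 were called by breed, by sex or between the gonads.

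Genes around KIT on the chromosome were looked at for the same breed order. In the Sscrofa11.1 assembly, from a Duroc pig, the protein-coding genes before KIT are RASL11B, SCFD2, FIP1L1, LNX1, CHIC2, GSX2 and PDGFRA, and those after it KDR and LOC100525350. The array has a probeset with the symbol alone for RASL11B, FIP1L1, CHIC2, KDR and LOC100525350. Of the 4 measured genes of the neighbour list 0 were called by breed over the mean of the tissues or in any tissue. Of all probesets 1.3% were called over the mean and 0.05% to 0.817% in single tissues, so that 0 of 4 is near the background. RASL11B, a RAS-like GTPase, was at 3.31, 3.16, 3.29 and 2.96 in LW, YL, DU and IB pigs. The mRNA processing factor FIP1L1 was at 9.76, 9.80, 9.74 and 9.67, CHIC2, a vesicle membrane protein, at 8.61, 8.63, 8.64 and 8.59, and the VEGF receptor KDR at 2.76, 3.44, 3.28 and 2.85 in the same order. None of them set LW and YL apart from DU and IB pigs. For RASL11B and KDR this says little, since both were low in most tissues. RASL11B had class means of 2.29 to 2.79 in the 4 non-gonadal tissues, with 4.73 in testis and 6.99 in ovary. This KDR probeset had class means of 2.26 to 2.49 outside thyroid (3.96) and backfat (4.29). The second KDR probeset was low in all tissues, with class means of 1.94 to 1.99.

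LOC100525350, the next gene beyond KDR and not a member of the neighbour list, was higher in LW and YL than in DU and IB, as KIT was. It was the gene with the highest Pearson r with KIT among the 6764 other gene symbols once the mean of each tissue class was subtracted (r = 0.70 over 80 arrays). Over the mean of the tissues it was at 7.26 ± 0.21 in LW, 7.50 ± 0.14 in YL, 6.79 ± 0.16 in DU and 6.85 ± 0.14 in IB pigs (SD, n = 4 each). The lowest LW or YL animal was at 7.12, and the highest DU or IB animal at 6.99, so that LW and YL did not overlap with DU and IB. In such means of 5 tissues, ranges did not overlap in 9.9% of probesets for LW and DU, 12.3% for LW and IB, 6.73% for YL and DU and 8.64% for YL and IB, with 6.1% for LW and YL and 6.36% for DU and IB. YL, not LW, was highest. In the thyroid the values were 7.39 to 7.89 in LW, 7.77 to 8.04 in YL, 6.69 to 7.13 in DU and 6.84 to 7.21 in IB pigs. In the adenohypophysis LW (6.06 to 6.78) and DU (6.16 to 6.67) overlapped, and so did IB pigs (6.07 to 6.18) with LW. With the mean of each class and breed subtracted, r was 0.56. As it was picked by its likeness to KIT, none of these values was tested.

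**Figure D3:**
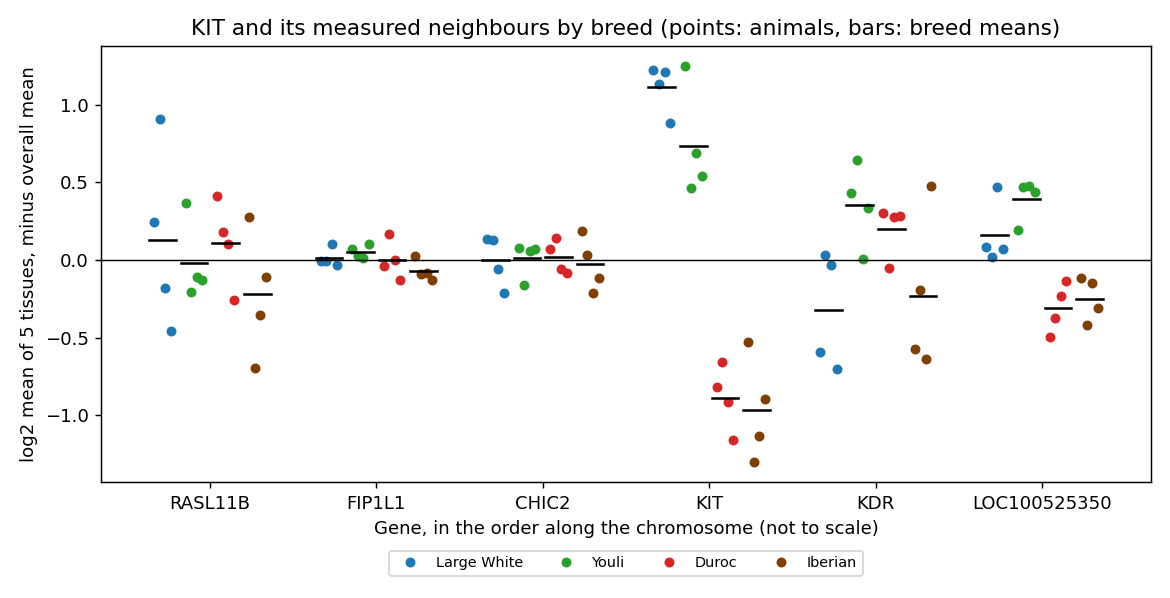
KIT and the measured genes around it in chromosomal order (horizontal axis, not to scale), as an animal's mean over 5 tissues minus the mean of 16 animals, on the log2 scale (vertical axis). Points are animals coloured by breed and bars are breed means. KIT and LOC100525350 separate LW and YL from DU and IB pigs, and RASL11B, FIP1L1, CHIC2 and KDR do not.

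The other genes most like KIT after subtraction of the class means lay on other chromosomes. These were COX7C, a subunit of cytochrome c oxidase (r = 0.68), the zinc finger gene ZNF133 (0.68), C1H14orf166 (0.67), an RNA ligase complex subunit, and TPGS2, a subunit of tubulin polyglutamylase (0.61). The lowest r were those of THYN1 (-0.63), the zinc finger gene ZNF12 (-0.61) and the actin binding gene LIMA1 (-0.57). ZNF12 was at 6.63 ± 0.16 in LW, 7.55 ± 0.17 in YL, 7.89 ± 0.29 in DU and 8.03 ± 0.34 in IB pigs (SD, n = 4 each). With the mean of each class and breed subtracted, r was -0.05 for COX7C, 0.17 for THYN1 and 0.05 for ZNF12, whereas TPGS2 was at 0.37, C1H14orf166 at 0.30 and ZNF133 at 0.25. These r describe 80 arrays of 16 animals that share breed and animal, and carry no p.

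Without subtraction, r also holds the differences between tissues. The 5 highest were those of ENY2, a chromatin and mRNA export factor (r = 0.74), STAU1, an RNA binding protein (0.73), PPIH, a splicing-associated isomerase (0.73), the vascular factor ANGPT2 (0.72) and cytochrome b5 type B CYB5B (0.70). ANGPT2 had a thyroid mean of 8.50 and class means of 3.47 to 6.24 elsewhere. Its breed means, 5.53 in LW, 5.72 in YL, 5.46 in DU and 5.38 in IB pigs, were close together.

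Mast cells carry KIT, and their genes were set beside it. Of 14 mast cell markers 3 were measured by a named probeset: MS4A2, the beta chain of the IgE receptor, GATA2, a transcription factor of several blood lineages, and SRGN, the proteoglycan of secretory granules. MS4A2 was called by breed over the mean of the tissues (adjusted p = 0.010, limma), as were 1.3% of all probesets. Its level was lower in LW and YL than in DU and IB pigs, opposite to KIT. MS4A2 was at 4.76 ± 0.20 in LW and 4.67 ± 0.34 in YL, and at 5.67 ± 0.35 in DU and 5.94 ± 0.34 in IB pigs (SD, n = 4 each). The highest LW or YL animal, at 5.14, was below the lowest DU animal, at 5.19, and IB animals ran from 5.50 to 6.23. In such means of the tissues 6.73% to 12.3% of all probesets did not overlap between these pairs of breeds. GATA2 and SRGN were not called (adjusted p = 0.69 and 0.26, limma).

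MS4A2 was highest in backfat, with 6.18 ± 0.31 in LW, 6.30 ± 0.79 in YL, 7.80 ± 0.84 in DU and 8.34 ± 0.73 in IB pigs (SD, n = 4 each; adjusted p = 0.093, limma). In the thyroid, where it passed (adjusted p = 0.019, limma; 0.575% of probesets called), it ran from 4.22 to 4.74 in LW, 4.73 to 5.63 in YL, 5.28 to 7.03 in DU and 5.65 to 6.52 in IB pigs. That call was lost without the animal IBM23 (adjusted p = 0.050, limma) and without the arrays that stood apart, 4 of them thyroids (adjusted p = 0.17, limma), and with breed taken from the fields (1.0). The second MS4A2 probeset was at 2.18, 2.28, 2.45 and 2.64 in LW, YL, DU and IB pigs, without passing (adjusted p = 0.12, limma). In the testes MS4A2 was at 4.94 to 5.11 in LW, 4.17 to 4.75 in YL, 5.99 to 6.34 in DU and 6.21 to 6.39 in IB males. Summed over the 3 markers, where SRGN dominates, the backfat level was 10.43 to 11.13 in LW, 9.98 to 11.49 in YL, 10.91 to 11.64 in DU and 10.66 to 11.52 in IB pigs on the log2 scale, so that breeds overlapped. In the testes the same sum was 8.26 to 8.87 in LW and 8.42 to 8.93 in YL, below the 9.19 to 9.90 of DU and 9.39 to 9.55 of IB males. These pairs of breeds did not overlap, but neither did they in 25.5% to 36% of all probesets in the testes, so that such gaps are common there. The part of mast cells in the KIT level was not tested.

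**Figure D4:**
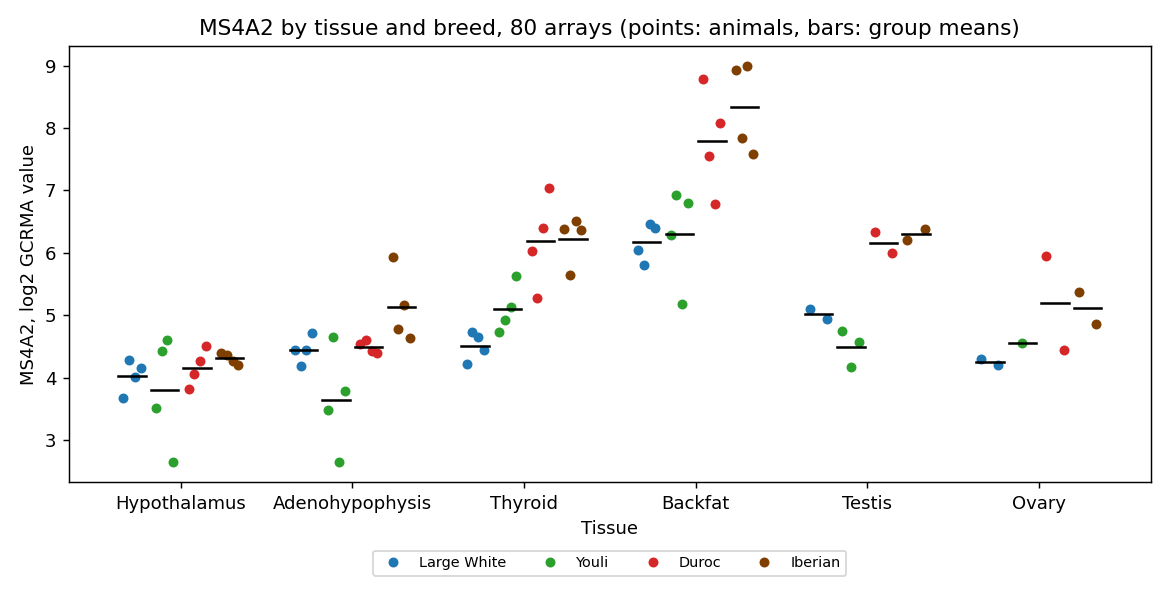
MS4A2, the beta chain of the IgE receptor, on the log2 GCRMA scale (vertical axis) in each of 80 arrays, by tissue and breed (colour). Points are animals and bars are group means. DU and IB means lie above LW and YL means in each tissue, most in backfat, where breed means run from 6.18 to 8.34.

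Most melanocyte markers were low. Of 16 markers 9 were measured, and in each of the 4 non-gonadal tissues 7 of 9 had a class mean under 3, with MITF above it in all of them. PAX3 (2.41 to 2.52), SOX10 (2.63 to 2.85) and MLPH (2.35 to 2.59), a melanosome transport gene, stayed low in all classes. Whether their probesets detect these genes was not tested, so low signals do not show that the genes or melanocytes are absent. TYR, the tyrosinase of melanin synthesis, had a mean of 3.78 in the testis and 2.27 to 2.36 elsewhere. In the testes it was at 4.30 and 5.00 in LW and 3.56 to 5.99 in YL. These lay above the 2.47 and 3.10 of DU and the 2.36 and 2.87 of IB males, the same split of breeds as for KIT. MITF, another of the 9 markers, did not show this split in the testes. It was at 4.02 and 4.22 in LW and 3.80 to 5.06 in YL, below the 5.22 and 5.38 of DU males. IB males, with MITF at 4.21 and 4.91, overlapped with LW and YL. TYRP1, a melanosome enzyme, had a class mean above 3 in the adenohypophysis alone, with breed means of 3.41 in LW, 2.64 in YL, 3.70 in DU and 4.85 in IB pigs. OCA2, a melanosome channel gene, was at 7.76 in the thyroid, where its breed means were 7.59 in LW, 7.36 in YL, 8.13 in DU and 7.96 in IB pigs. In the testes OCA2 was at 3.35 and 4.38 in LW and 3.27 to 5.03 in YL, and at most 2.72 in DU and IB males, so that LW and YL were the higher breeds there and had the lower means in the thyroid. Between these breeds 25.5% to 36% of all probesets did not overlap in the testes, and 0 of 9 melanocyte markers were called by breed in the gonads. By breed 1 of 9 was called over the mean of the tissues, as were 1.3% of all probesets: the melanosome transporter SLC45A2 (adjusted p = 0.029, limma). It was at 2.26 ± 0.19 in YL and 1.79 to 1.91 in the other breeds. In the thyroid, where it passed too (adjusted p = 0.0068, limma; 0.575% of probesets called), it was at 2.58 to 2.76 in YL and 1.72 to 2.39 in the other breeds. Both calls rest on values at the bottom of the scale. The first was lost when any of 8 of the 16 animals was left out (up to an adjusted p of 0.094, limma, without YLF21) or the gonads were left out of the mean (0.081), and the second without the arrays that stood apart (0.19) and with breed taken from the fields (1.0). Summed over the 9 markers, the thyroid level was 7.45 to 8.39 in LW, 7.69 to 8.15 in YL, 8.24 to 8.80 in DU and 7.80 to 8.57 in IB pigs, and in the testes 6.30 to 6.60 in LW, 6.42 to 7.16 in YL, 6.26 to 6.42 in DU and 5.92 to 6.17 in IB males. The part of melanocytes in the KIT level was not tested.

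Blood progenitor, endothelial and red cell markers were not called by breed. Of these lists 3 of 9, 6 of 7 and 3 of 5 were measured, and 0 were called over the mean of the tissues or in any tissue. For so few genes a count of 0 is near the background, which was 1.3% of all probesets over the mean and 0.05% to 0.817% in single tissues. Summed endothelial markers in the thyroid, the tissue with the most KIT, were at 11.42 to 11.72 in LW, 11.56 to 11.74 in YL, 11.42 to 11.74 in DU and 11.16 to 11.57 in IB pigs on the log2 scale, and so overlapped between breeds.

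In the gonads KIT was read beside the cell types that carry it. Leydig cell genes, of which 7 of 8 were measured, were called between the gonads in 5 of 7, all higher in testis, as were 15% of all probesets. The steroid enzyme CYP17A1 was higher by 8.99 (SE 0.66, adjusted p = 1.4e-06, limma) and the Leydig hormone INSL3 by 5.65 (SE 1.10, adjusted p = 0.0021, limma). STAR, which carries cholesterol into mitochondria, was at 12.50 and 13.64 in DU, 12.80 and 13.59 in IB, 10.33 and 10.93 in LW and 11.02 to 12.08 in YL testes. CYP17A1 was at 12.12 and 12.64 in DU, 13.06 and 13.59 in IB, 10.87 and 12.70 in LW and 11.59 to 11.78 in YL. INSL3 was at 14.15 and 14.34 in DU, 14.60 and 14.67 in IB, 13.88 and 14.54 in LW and 14.27 to 14.41 in YL. LW and DU thus overlapped in both. Of all probesets 25.5% to 36% did not overlap between LW or YL and DU or IB testes. By breed 0 of 7 Leydig cell genes were called in the gonads, as were 0.05% of all probesets. These are values of 2 or 3 animals a breed, and STAR was not tested against KIT. The germ cell gene DDX4 was at 5.42 in the testis of LWM02, the testis with the most KIT (8.32), at 3.74 in that of YLM19 (KIT 6.54), and at 2.29 to 2.62 in the other 7. The testes next to LWM02 in KIT, of LWM04 (7.61) and YLM20 (7.14), had DDX4 at 2.62 and 2.38. In the ovaries, also those with oocyte signals, DDX4 was at 2.30 to 2.42. A low DDX4 value therefore does not show that germ cells are absent. DMRT1, of Sertoli cells and spermatogonia, was at 10.39 and 11.02 in LW, 10.01 to 10.55 in YL, 9.50 and 10.77 in DU and 9.12 and 9.77 in IB testes.

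These counts stand beside 28.3% of all probesets called between the gonads, 15% higher and 13.2% lower in testis. Of the germ cell list 5 of 15 were measured and 2 called between the gonads, DMRT1 higher and the ubiquitin hydrolase UCHL1 lower in testis. Of the granulosa list 8 of 8 were measured and 4 called, FST, the estradiol enzyme HSD17B1 and the activin subunit INHBA lower and the FSH receptor FSHR higher in testis. Oocyte genes, 7 of 13 measured, were called lower in testis in 6 of 7. In the 6 ovaries with ovarian signals DPPA5, a pluripotency gene of oocytes, did not rank as KIT did. The DU ovary of DUF14 had the most DPPA5 (12.65) and ovaries of LW 11.54 and 11.95, while KIT was at 6.12, 7.48 and 8.54 there. The YL ovary had the least DPPA5 (9.39) at a KIT level of 7.56. The part of these gonadal cell types in the KIT level was not tested.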

How the data were processed

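Expression was measured with Affymetrix GeneChip Porcine arrays in 5 tissues of 16 pigs, 1 array a tissue and animal. According to the methods of the study, the authors normalized all array files simultaneously with GCRMA after scanning with GCOS, and the deposited log2 values were used as they are. The number of arrays limits the precision, since arrays give no read depth. Of 24123 probesets 124 controls were left out and 23999 tested. Of these 10069 have 1 symbol in the platform annotation, 198 several and 13732 none, and 9961 of those with 1 symbol matched a gene ID of the reference table, assembly Sscrofa11.1, used for names and gene order only. A gene with several probesets is represented by the one with the highest mean.

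Groups came from the titles. Tests were run in limma 3.58.1 (R 4.3.3) with eBayes and Benjamini-Hochberg adjustment over all probesets, threshold 0.05, two-sided: tissue with breed and sex as covariates over 80 arrays, testis against ovary and sex in each tissue with breed as covariate, the breed by tissue interaction over 48 arrays, and breed with sex as covariate for the genes of the lists. The code was tested on simulated data. Genes named are KIT, KITLG, the 5 highest and 3 lowest in r with KIT after subtraction of class means, the 5 highest without it, list members called by breed, and bright markers; other list genes were chosen after their values were seen. The gene, its lists and tests were chosen with earlier results of these data known. Correlations, sums and figures were made in Python 3 with pandas and matplotlib.

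Arrays of the same number come from the same animal, by the titles. After breed and sex were removed in each tissue, residuals of the same animal correlated between tissues with a mean r of 0.06 to 0.28, and those of other animals at -0.02 to 0.00. The tests have no animal term, as in the model of the study, and the fit with the animal as a block is an alternative. Other alternatives were centring on a common median, quantile normalization within tissues, thyroid labels from the breed and sex fields, leaving out probesets with all class means under 4 (16416 kept), limma trend with robust eBayes, sex tests without breed, the mean without gonads, the interaction with the adenohypophysis, and leaving out each animal in turn. Leaving out the ovary of IBF25, or 7 arrays that stood apart, was chosen after seeing the data, as were r with gonads left out or class and breed means subtracted.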

Additional observations from a re-analysis of the deposited data

Results flagged for a closer look

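In groups of 4 arrays, 16 for each gene, a value was marked where its distance to the nearest of the others exceeded the critical share of the whole range. If values are normally distributed, chance alone marks one in about 1 of 20 groups. KIT had 2 such arrays, both Duroc and both high: the hypothalamus of DUM12 at 5.55, with the other 3 at 3.66 to 3.95 and a thyroglobulin TG signal of 5.47 on this array (1.81 to 2.27 in the other 15 hypothalami), and the backfat of DUF13 at 5.81, with the other 3 at 4.45 to 4.54.

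KITLG had 7 such arrays among 16 groups: the hypothalami of LWF06 (4.20), DUM12 (3.21) and YLM20 (2.82), the adenohypophysis of DUM12 (2.24, the only low one), the thyroid of IBM24 (4.21), and the backfat of LWF06 (3.42) and IBM24 (3.58). The hypothalamic arrays with the highest KITLG and the highest KIT of Large White were the same one, that of LWF06, which lacked PMCH and AVP signals. Over the 4 genes looked at, the others being MS4A2 and LOC100525350, 9 arrays of 64 groups were marked.

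The breed difference varied between hypothalamus, thyroid and backfat for 2 list genes by limma's moderated F test. All measured genes of the lists were looked at, and 1.18% of all probesets were called by this test, so that the count itself is not read as a result. CYB5A, cytochrome b5 (adjusted p = 0.0050, limma), was at 11.90 in backfat of Iberian pigs and 10.58 to 11.08 in backfat of the other breeds, while its thyroid means were 12.52 to 12.69. NPM2 (adjusted p = 0.00050, limma) is an oocyte gene by the list but was at 3.24 to 3.38 in the ovaries. NPM2 was also called by breed over the mean of the tissues (adjusted p = 0.0060, limma). Its thyroid means were 5.86 in Iberian, 5.18 in Large White, 4.32 in Duroc and 3.40 in Youli pigs, and its backfat means 3.38 to 3.55. With thyroid labels from the fields the difference of NPM2 between tissues did not pass (adjusted p = 0.87, limma).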

How the results depend on the processing

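Of the tests of KIT, the tissue calls kept their direction and side of the threshold under each alternative run. Backfat minus ovary, not called with all arrays (-0.34), passed without the ovary of IBF25 (-0.73) and without the 7 arrays (-0.74), and was -0.74 to -0.12 with an animal left out. Differences that did not pass the test changed sign. Backfat minus testis was 0.063 with arrays centred on a common median, and -0.22 to 0.059 with an animal left out. Male minus female was 0.36 for thyroid with labels from the fields, and 0.038 for thyroid and 0.14 for adenohypophysis with breed left out of the model. For adenohypophysis it was -0.21 to 0.00025 with an animal left out. The r of COX7C, THYN1 and ZNF12 with KIT turned to -0.049, 0.17 and 0.055 with class and breed means subtracted. With the field labels, KIT in the thyroid was 8.41 in Large White and 7.39 in Iberian pigs, and 0 probesets were called in that tissue by breed and 0 by sex. With the animal as replicate block, the breed by tissue term of KIT had an adjusted p of 0.86 (limma), and the block changed no call of KIT, but 3195 probesets were called by breed over the tissues in place of 312. POU1F1, called by breed over the mean of the tissues (adjusted p = 0.040, limma), did not pass with the block (0.20). Breed calls were 109 in place of 72 for adenohypophysis without dim probesets, 593 in place of 196 for backfat with limma trend and robust eBayes, 22 in place of 12 for gonads without the ovary of IBF25 and also without the 7 arrays, and 52 in place of 138 for thyroid without the 7 arrays. The interaction called 546 in place of 284 with the adenohypophysis added. With an animal left out, calls by breed ran from 147 (without IBM23) to 584 (IBM24) over the mean of the tissues, 20 (DUM15) to 66 (LWM02) in hypothalamus, 40 (IBM23) to 178 (LWF06) in adenohypophysis, 56 (YLF21) to 424 (IBM24) in thyroid, 48 (LWM04) to 414 (YLM19) in backfat and 4 (LWF06) to 22 (IBF25) in gonads. Interaction calls ran from 169 (YLM20) to 379 (LWF06), and sex calls in adenohypophysis from 77 (DUF14) to 121 (LWM04). The cause of these shifts was not tested. Low signals, as those of KITLG and SLC45A2, limit what can be read from their differences.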
